A study of Homo sapiens with 24 samples.

Results

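The 10 genes described here, NKX2-2, BCL11B, GLI1, SOX6, PRKCB, PPP1R1A, CCND1, STEAP1, CCK and LIPI, are known to be activated by EWSR1-FLI1, the fusion protein of Ewing sarcoma. They were listed by name from that knowledge, but with earlier results of these data known, as were the further lists below. The shares called in these lists, set beside those of all genes, are therefore only descriptive. Of the 10, 9 had a probe set among the 17687 genes with a symbol on the array. SOX6, a transcription factor of the SOXD group, matched no probe set by symbol, gene identifier or accession and was not analysed here. The cells were ES8, a human Ewing sarcoma cell line, and 1 derivative, ES8-1F2, in which SLFN11 had been knocked out with CRISPR/Cas9. Cells of both lines were grown in DMEM/F12 with serum, given 0 Gy or 2 Gy of gamma radiation, and lysed for RNA 4 h or 24 h afterwards, which gave 8 groups of 3 arrays. The 0 Gy groups, unirradiated at 4 h and at 24 h, are the controls of the irradiated ones within each line, and parental ES8 is the control of the knockout at each dose and time. Since the knockout is represented by 1 derivative line, loss of SLFN11 and any other difference between the 2 lines cannot be told apart. The labels number the replicates 1 to 3 without saying whether each came from its own culture. The p-values thus reflect the spread between these arrays, and that spread may be technical.

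EWSR1-FLI1 joins the transcription-activating part of EWSR1 to the DNA-binding domain of FLI1, an ETS family factor that recognises GGAA. Binding to runs of GGAA turns silent repeats into enhancers, and genes switched on in this way include transcription factors, kinase regulators and surface proteins that Ewing sarcoma cells use to grow. SLFN11, a nuclear protein that blocks stressed replication forks and sensitises cells to DNA damage, is itself known as a gene that the fusion activates. The comparisons below ask whether other genes of the fusion's program differed between cells with and without intact SLFN11, and whether 2 Gy or time changed them.

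RefSeq's promoter table for GRCh38.p14 held an entry for 7 of the 10 genes: NKX2-2, BCL11B, SOX6, PRKCB, STEAP1, CCK and LIPI. The 250 bases before the outermost start are printed for the 3 of these whose line difference passed the test in every condition, described below. Capitals mark the core motif GGAA, or TTCC where it lies on the other strand. The PRKCB window is chr16:23835733-23835982 on the plus strand, the STEAP1 window is chr7:90154219-90154468 on the plus strand, and the LIPI window is chr21:14210956-14211205 on the minus strand, each written 5′ to 3′ along its gene.
PRKCB: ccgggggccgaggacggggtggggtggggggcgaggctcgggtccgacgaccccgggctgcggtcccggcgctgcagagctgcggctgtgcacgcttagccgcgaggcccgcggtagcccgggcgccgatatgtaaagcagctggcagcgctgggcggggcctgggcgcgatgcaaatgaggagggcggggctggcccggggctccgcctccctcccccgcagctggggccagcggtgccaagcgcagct
STEAP1: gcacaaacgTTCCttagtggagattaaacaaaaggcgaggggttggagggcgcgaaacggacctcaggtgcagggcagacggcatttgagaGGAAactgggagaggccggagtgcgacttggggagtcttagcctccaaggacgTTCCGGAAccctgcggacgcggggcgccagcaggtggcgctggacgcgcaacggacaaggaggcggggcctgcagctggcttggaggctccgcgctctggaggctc
LIPI: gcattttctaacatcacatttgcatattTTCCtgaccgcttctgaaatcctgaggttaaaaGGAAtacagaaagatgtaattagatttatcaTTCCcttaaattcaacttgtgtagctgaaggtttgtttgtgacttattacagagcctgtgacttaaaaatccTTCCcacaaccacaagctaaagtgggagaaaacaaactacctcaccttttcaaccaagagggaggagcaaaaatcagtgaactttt
On both strands together, the STEAP1 window held 4 copies of GGAA, the LIPI window 4 and the PRKCB window 0. Copies are common: 92.8% of the 27305 RefSeq windows of the same length held at least 1, and their median count was 3. The ETS-type site CCGGAA, which contains GGAA, was matched 2 times in the STEAP1 window. Both matches overlap in the stretch TTCCGGAA, read on opposite strands, and are not separate sites. CCGGAA was found in 14.8% of all windows. The tandem GGAAGGAA, which contains 2 copies of GGAA, was found in none of the 7 windows and in 2.99% of all windows. These matches describe letters in short windows next to the start; repeats that lie farther away were not searched.

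The arrays were alike in brightness. Their medians over all genes lay between 5.24 and 5.33 on the log2 scale, and the background level, the 95th percentile of 612 negative control probe sets, lay between 3.46 and 3.81. All 9 measured genes were above background on all 24 arrays. The widest departure was a narrower spread of signals on replicate 2 of the parental 2 Gy groups, at 4 h and at 24 h, with interquartile ranges of 3.28 and 3.34 against 3.42 to 3.62 on the other arrays. SLFN11 was lower on all 12 knockout arrays (6.33 to 7.07) than on any parental array (8.03 to 8.63), although its transcript remained above background. The 5 measured Ewing sarcoma markers of 6 (CD99, FLI1, NKX2-2, STEAP1 and CCND1) were all above background on every array. This cannot test the Ewing sarcoma label, because 14031 of the 17687 genes were above background on at least 3 arrays. Markers of other cell types were mostly dim: of 5 epithelial, 5 blood, 6 endothelial and 6 skeletal muscle markers, 2, 2, 2 and 1 were above it on every array, and none of them passed the test in any of the 4 line comparisons.

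At each dose and time, knockout cells were compared with parental cells in a limma fit over all 17687 genes, and genes whose Benjamini-Hochberg adjusted p was under 0.05 count as called. Differences are knockout minus parental, in log2 units. PPP1R1A, GLI1 and STEAP1 were lower in knockout cells and PRKCB and LIPI were higher, each called in all 4 conditions. NKX2-2, on the higher side, and BCL11B, on the lower, were each called in 2 of 4 conditions, and CCND1 and CCK were called in none. The direction was therefore mixed: 2 of the 5 genes called throughout were higher and 3 were lower. Over the 9 genes the median difference, averaged over the 4 conditions, was -0.13, against -0.02 over all genes. The median size of this difference was 0.58, against 0.11 over all genes. The all-gene values include genes below background, while all 9 genes were above it on every array, so the sizes are not compared at like brightness.

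At 0 Gy and 4 h, 5 of 9 genes were called (2 higher, 3 lower), where 11.8% of all genes were called (6.27% higher, 5.5% lower). At 0 Gy and 24 h, 7 were called (3 higher, 4 lower), against 11.6% of all genes (6.47% higher, 5.09% lower). At 2 Gy and 4 h, 6 were called (3 higher, 3 lower), against 12% (6.87% higher, 5.13% lower). At 2 Gy and 24 h, 6 were called (2 higher, 4 lower), against 12% (6.29% higher, 5.68% lower). For the mean of the 4 conditions, 7 were called (3 higher, 4 lower), against 30.4% of all genes (15.8% higher, 14.6% lower). Among the 14031 genes above background on at least 3 arrays, to which all 9 belong, the shares called were 14.5%, 14.2%, 14.8% and 14.7%. Calls in all 4 conditions with 1 sign were made for 5 of 9 genes and for 6.38% of all genes (3.54% higher, 2.84% lower), or 8.01% of those above background. The 12 arrays of each line did not overlap for 4 of 9 genes and for 5.65% of all genes. Without the pair of arrays with a narrow spread of signals, 6 of 9 genes were called at 2 Gy and 4 h and 5 at 2 Gy and 24 h, where BCL11B was lost. In bulk RNA, fewer cells with a transcript and less of it per cell cannot be told apart.

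**Figure D1:**
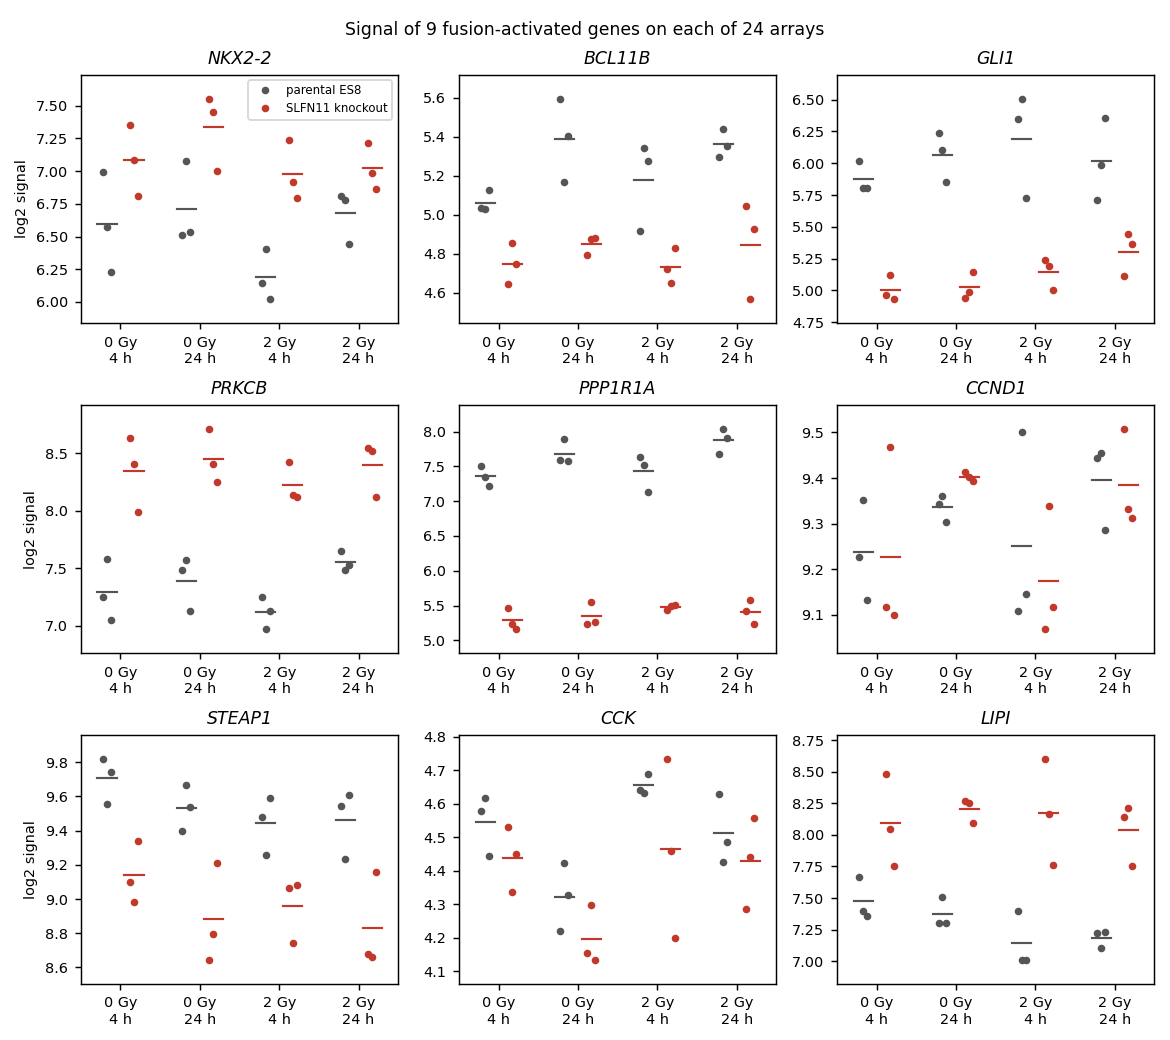
log2 signal of the 9 measured genes on each of the 24 arrays, by dose and time after irradiation on the x axis, with parental ES8 in grey and the SLFN11 knockout in red; bars are means of 3 arrays, and each panel has its own y range. PPP1R1A and GLI1 sit lower on every knockout array, PRKCB and LIPI sit higher on every one. CCK overlaps in each condition and CCND1 in all but 0 Gy and 24 h.

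Among the transcription factors, GLI1 differed most. It is the zinc finger activator at the end of the hedgehog pathway and a gene that the fusion can switch on directly. In parental cells its signal was 6.02, 5.80 and 5.80 at 0 Gy and 4 h, 6.24, 6.10 and 5.85 at 0 Gy and 24 h, 6.35, 6.51 and 5.72 at 2 Gy and 4 h, and 5.71, 5.99 and 6.36 at 2 Gy and 24 h. In knockout cells it was 4.97, 5.12 and 4.93, then 4.94, 4.99 and 5.14, then 5.24, 5.19 and 5.0004, then 5.11, 5.44 and 5.36 in the same order of groups. All 12 knockout arrays lay below all 12 parental arrays, which held for 2.43% of all genes. The differences were -0.87, -1.04, -1.05 and -0.71 (SE 0.18 each, n = 3 arrays a group), and their mean was -0.92 (SE 0.09, limma adjusted p = 2.40e-10), a 1.89-fold lower level. Ordered by mean signal, the only neighbouring groups that were farther apart than the larger of their SDs were the highest knockout and the lowest parental group, with a gap of 0.57 against an SD of 0.17. At 2 Gy and 24 h the difference was -0.55 and no longer called (limma adjusted p = 0.066) once parental replicate 3, the highest array there, was dropped.

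NKX2-2, a homeodomain factor that represses genes through TLE corepressors and is needed for the transformed state of Ewing sarcoma cells, pointed the other way. Its parental signal was 6.997, 6.57 and 6.23 at 0 Gy and 4 h, 6.51, 7.08 and 6.54 at 0 Gy and 24 h, 6.15, 6.40 and 6.02 at 2 Gy and 4 h, and 6.81, 6.78 and 6.44 at 2 Gy and 24 h. Its knockout signal was 7.35, 7.08 and 6.81, then 7.55, 7.45 and 6.998, then 7.23, 6.92 and 6.79, then 7.21, 6.99 and 6.87. The 2 lines overlapped in the unirradiated groups and separated in both 2 Gy groups. How many of all genes separate in this way, 3 arrays against 3, was not counted here or for the genes below. The difference was 0.63 (SE 0.18, limma adjusted p = 0.018) at 0 Gy and 24 h and 0.79 (SE 0.18, limma adjusted p = 0.0022) at 2 Gy and 4 h, and the mean over the 4 conditions was 0.56 (SE 0.09, limma adjusted p = 6.46e-06). It was not called at 0 Gy and 4 h (0.48, limma adjusted p = 0.083) or at 2 Gy and 24 h (0.34, limma adjusted p = 0.28). A fit that blocks on the replicate number, which pairs the arrays of the 0 Gy, 4 h groups, called the difference at 0 Gy and 4 h (limma adjusted p = 0.0075). It was also called there without parental replicate 1 (0.68, limma adjusted p = 0.016) or knockout replicate 3 (0.62, limma adjusted p = 0.039). Its call at 0 Gy and 24 h ended when parental replicate 1 (0.53) or 3 (0.54), or knockout replicate 1 (0.51) or 2 (0.57), was dropped, with limma adjusted p between 0.078 and 0.13.

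BCL11B, a zinc finger factor of T cell and neuronal development, was the dimmer case. Parental values were 5.03, 5.03 and 5.13 at 0 Gy and 4 h, 5.60, 5.17 and 5.40 at 0 Gy and 24 h, 4.92, 5.34 and 5.27 at 2 Gy and 4 h, and 5.30, 5.44 and 5.35 at 2 Gy and 24 h. Knockout values were 4.64, 4.86 and 4.75, then 4.79, 4.87 and 4.88, then 4.72, 4.65 and 4.83, then 5.04, 4.57 and 4.93. Within each condition every knockout array was below every parental array, also in the conditions where BCL11B was not called. Knockout minus parental, BCL11B differed by -0.31, -0.54, -0.44 and -0.52 (SE 0.16 each), for which limma gave adjusted p of 0.25, 0.020, 0.064 and 0.027. The mean was -0.45 (SE 0.08, limma adjusted p = 2.27e-05). Both single-condition calls hung on few arrays. Dropping replicate 1 (-0.44) or 3 (-0.53) of the parental cells, or replicate 1 of the knockout (-0.51), ended the call at 0 Gy and 24 h. Dropping parental replicate 2 (-0.48), parental replicate 3 (-0.52) or knockout replicate 2 (-0.38) ended it at 2 Gy and 24 h. Dropping parental replicate 1 added a call at 2 Gy and 4 h (-0.57, limma adjusted p = 0.027).

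PPP1R1A had the largest line difference of the 9 genes and ranked 38th by size among all 17687. It encodes an inhibitor of protein phosphatase 1 that acts once protein kinase A has phosphorylated it. Its parental signal was 7.51, 7.35 and 7.21 at 0 Gy and 4 h, 7.59, 7.89 and 7.57 at 0 Gy and 24 h, 7.64, 7.51 and 7.13 at 2 Gy and 4 h, and 7.68, 8.04 and 7.91 at 2 Gy and 24 h. Its knockout signal was 5.47, 5.23 and 5.16, then 5.24, 5.56 and 5.27, then 5.43, 5.50 and 5.51, then 5.43, 5.57 and 5.24. The highest knockout array, at 5.57, was far below the lowest parental array, at 7.13. The differences were -2.07, -2.33, -1.95 and -2.46 (SE 0.14 each), with a mean of -2.20 (SE 0.07, limma adjusted p = 1.91e-22), a 4.60-fold lower level. Of the spread of its values over the 24 arrays, measured as the sum of squares, 96.5% lay between the 2 lines and 1.62% between replicates.

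PRKCB had the largest upward difference of the 9 genes. It encodes protein kinase C beta, a serine/threonine kinase activated by calcium and diacylglycerol. Parental cells gave 7.25, 7.58 and 7.05 at 0 Gy and 4 h, 7.48, 7.57 and 7.12 at 0 Gy and 24 h, 7.25, 6.97 and 7.13 at 2 Gy and 4 h, and 7.65, 7.48 and 7.53 at 2 Gy and 24 h. Knockout cells gave 8.63, 8.41 and 7.99, then 8.71, 8.40 and 8.25, then 8.42, 8.14 and 8.12, then 8.55, 8.52 and 8.12. All 12 knockout arrays lay above all 12 parental arrays, as for 3.22% of all genes. The differences were 1.05, 1.06, 1.11 and 0.84 (SE 0.15 each), with a mean of 1.02 (SE 0.08, limma adjusted p = 5.88e-13), a 2.02-fold higher level that kept its call without any single array.

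CCND1, which encodes cyclin D1, the partner of CDK4 and CDK6 in the G1 phase, was the gene whose lines differed least. It ranged from 9.11 to 9.50 (median 9.32) over the parental arrays and from 9.07 to 9.51 (median 9.34) over the knockout arrays. The 2 lines overlapped in 3 of 4 conditions, while at 0 Gy and 24 h the knockout arrays (9.41, 9.403 and 9.39) lay just above the parental ones (9.34, 9.36 and 9.305). The differences were -0.01, 0.07, -0.08 and -0.01, and the 95% interval of their mean ran from -0.11 to 0.09. Line took 0.082% of its spread and time after treatment 32.3%, with 63.6% between replicates.

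STEAP1, a six-transmembrane surface protein studied as a target on Ewing sarcoma cells, was lower in knockout cells. Parental cells gave 9.82, 9.56 and 9.74 at 0 Gy and 4 h, 9.40, 9.66 and 9.54 at 0 Gy and 24 h, 9.48, 9.26 and 9.59 at 2 Gy and 4 h, and 9.54, 9.24 and 9.61 at 2 Gy and 24 h. Knockout cells gave 9.10, 8.98 and 9.34, then 8.65, 8.79 and 9.21, then 9.06, 8.74 and 9.08, then 8.68, 8.66 and 9.16. The lines did not overlap within any condition, though replicate 3 of the unirradiated knockout at 4 h exceeded the lowest parental array. The differences were -0.56, -0.65, -0.48 and -0.63 (SE 0.13 each), with a mean of -0.58 (SE 0.07, limma adjusted p = 9.80e-09), a 1.497-fold lower level. At 2 Gy and 4 h the call was lost without parental replicate 3 (-0.41, limma adjusted p = 0.066), without knockout replicate 2 (-0.37, limma adjusted p = 0.11) and when the intensity trend was left out of the fit (limma adjusted p = 0.056). Its near-identical relative STEAP1B had a mean difference of -0.55, and the probe sets of the pair may not separate their transcripts.

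LIPI, a membrane-associated phospholipase that acts on phosphatidic acid and is otherwise mostly found in testis, was higher in knockout cells. Its parental signal was 7.66, 7.40 and 7.36 at 0 Gy and 4 h, 7.30, 7.51 and 7.30 at 0 Gy and 24 h, 7.40, 7.01 and 7.01 at 2 Gy and 4 h, and 7.22, 7.11 and 7.23 at 2 Gy and 24 h. Its knockout signal was 8.48, 8.04 and 7.75, then 8.27, 8.25 and 8.09, then 8.60, 8.16 and 7.76, then 8.14, 8.21 and 7.75. Every knockout array was above every parental array, with the nearest 2 arrays at 7.75 and 7.66. The differences were 0.62, 0.83, 1.03 and 0.85 (SE 0.16 each), with a mean of 0.83 (SE 0.08, limma adjusted p = 3.20e-10), a 1.78-fold higher level. At 0 Gy and 4 h the call was lost without knockout replicate 1 (0.43, limma adjusted p = 0.12).

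CCK, the gene of the peptide hormone cholecystokinin, overlapped between the lines, from 4.22 to 4.69 (median 4.53) in parental cells and from 4.13 to 4.73 (median 4.39) in knockout cells. Its differences were -0.11, -0.13, -0.19 and -0.09, none of them called, and the 95% interval of their mean ran from -0.29 to 0.03.

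**Figure D2:**
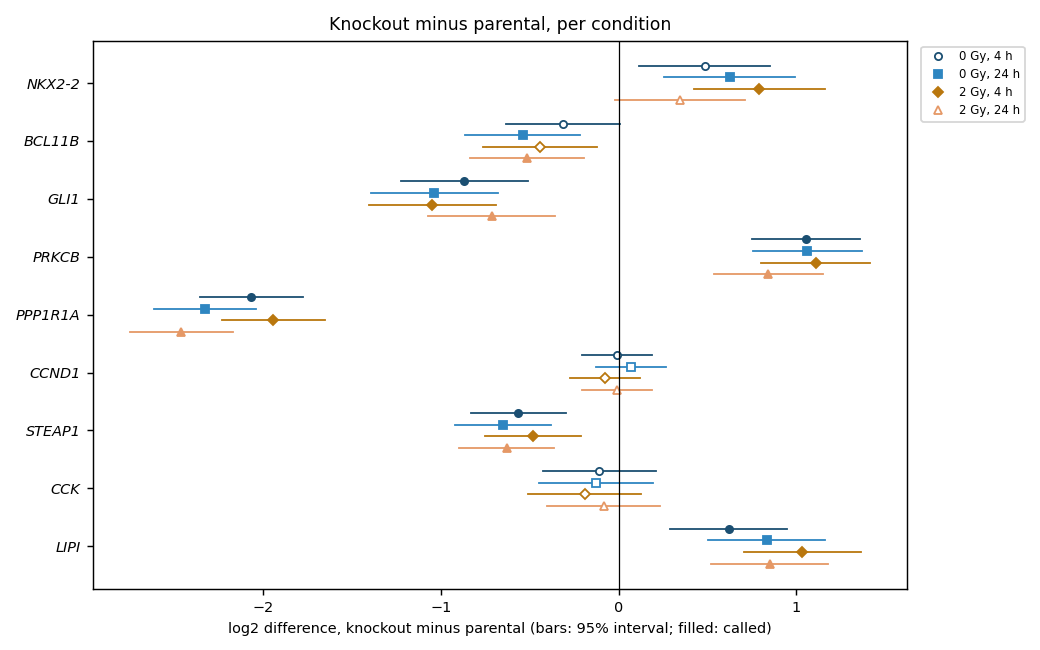
Knockout minus parental difference in log2 signal (x axis) for each of the 9 genes (y axis) at each dose and time; points are differences of means of 3 arrays, bars are 95% intervals from the limma fit, and filled points were called. PPP1R1A lies between -2.46 and -1.95, PRKCB between 0.84 and 1.11, and CCND1 spans 0 in every condition.

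Same-numbered replicates shared deviations in some of the 9 genes. In all 4 knockout groups replicate 3 was the lowest array for NKX2-2, PRKCB and LIPI, where 8.11% of all genes had some number lowest in all 4. In those groups replicate 3 was the highest for STEAP1, and replicate 1 for NKX2-2 and PRKCB, where 9.84% of all genes had some number highest in all 4. In parental cells no number was lowest in all 4 groups for any of the 9 genes (7.32% of all genes), and replicate 2 was the highest in all 4 for CCND1 (7.92% of all genes). What the numbers stand for was not tested.

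The transcripts of the fusion's own parts differed less than the 7 genes called in the mean of the 4 conditions. FLI1, whose 3′ part is present in the fusion transcript, was 7.89 to 8.44 in parental and 8.38 to 8.64 in knockout cells, with differences of 0.18, 0.36, 0.23 and 0.29. It was called at 0 Gy and 24 h alone (limma adjusted p = 0.014), and its mean of 0.27 (SE 0.05, limma adjusted p = 7.51e-05) came with overlapping arrays. EWSR1, which is expressed in most cells from its unrearranged copy too, was 8.60 to 8.77 in parental and 8.50 to 8.68 in knockout cells, with a mean difference of -0.09 (limma adjusted p = 0.070). A single probe set per gene does not separate the fusion transcript from the normal ones, so the level of the fusion itself was not measured. The 5 genes called throughout were lower or higher in cells whose FLI1 signal was 0.27 log2 units higher, and the part of FLI1 in these differences was not tested.

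A wider list of 37 other genes that the fusion is known to activate was read in the same way, and 33 were measured. Called in the 4 conditions were 19 (9 higher, 10 lower) at 0 Gy and 4 h, 19 (9 higher, 10 lower) at 0 Gy and 24 h, 13 (6 higher, 7 lower) at 2 Gy and 4 h, and 16 (7 higher, 9 lower) at 2 Gy and 24 h. Of all genes, 11.8%, 11.6%, 12% and 12% were called in these conditions, as given above. In all 4 conditions with 1 sign, 6 were called higher and 6 lower, together 36.4% of the list. That compares with 6.38% of all genes, or 8.01% of those above background. The median over the list was 0.01 for the mean of the 4 conditions.

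Among the genes of that list called in all 4 conditions, the largest rises were in ITM2A, a transmembrane protein, which went from 8.42 to 9.06 in parental cells to 9.69 to 10.10 in knockout cells (mean difference 1.12, limma fit), and in PDGFC, a platelet-derived growth factor, with 4.28 to 4.94 against 5.15 to 5.97 (0.96). The largest fall among those called in all 4 conditions was in NPY5R, a neuropeptide Y receptor, with 3.80 to 5.02 in parental and 3.11 to 4.24 in knockout cells (-0.91), where it was above background on 7 of 12 arrays. PAPPA, a protease that frees insulin-like growth factors from their binding proteins, fell by 0.87, from 5.28 to 6.07 in parental cells to 4.60 to 5.23 in knockout cells. IL1RAP, a co-receptor of interleukin 1 that is also studied as a surface target in Ewing sarcoma, had a mean difference of -0.77. That of HOXD13, a homeobox factor, was -0.69. For ITM2A, PDGFC, PAPPA, IL1RAP and HOXD13 the 12 arrays of each line did not overlap, while for NPY5R they did. Over the 33 measured genes of the list they did not overlap for 9 (27.3%), against 5.65% of all genes. FCGRT, RBM11, CAV1 and CD99 were the other genes of the list called higher in all 4 conditions, and KCNAB3 and KDSR the others called lower.

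Relatives and partners of the 10 genes were listed to see how their pathways stood, and 45 of 48 were measured. Called were 12 (4 higher, 8 lower) and 12 (5 higher, 7 lower) at 0 Gy, at 4 h and 24 h, and 15 (7 higher, 8 lower) and 16 (5 higher, 11 lower) at 2 Gy. In all 4 conditions 3 were called higher and 7 lower, 22.2% of the list against 6.38% of all genes, or 8.01% of those above background. Per condition, 11.8%, 11.6%, 12% and 12% of all genes were called, as given above. The list's median mean difference was -0.02, as over all genes.

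In the hedgehog pathway around GLI1, PTCH1, the receptor of hedgehog ligands and a gene that GLI1 activates, was 7.35 to 7.79 in parental and 6.05 to 6.73 in knockout cells, a mean difference of -1.10 (SE 0.06) that was called in all 4 conditions. SUFU, an inhibitor that holds GLI proteins in the cytoplasm, was 6.14 to 6.64 in parental and 6.58 to 7.52 in knockout cells (0.64, SE 0.08), also called in all 4. GLI2 had a mean difference of -0.49 and was called in 1 condition. The signal transducer SMO (-0.15) and GLI3 (0.07) were called in none.

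Of the 7 D cyclins and partners of cyclin D1 measured, CCND2 and CDK4 were called lower and CDKN1A higher in all 4 conditions, RB1 was called in 2 (mean difference 0.30) and CDKN1B in 1 (0.29), and CCND3 (0.23) and CDK6 (0.31) were called in none. CCND2, another D cyclin, was 8.43 to 9.37 in parental and 6.45 to 7.71 in knockout cells, a mean difference of -1.69 (SE 0.09), the largest of the list. CDKN1A, the p21 inhibitor of cyclin-dependent kinases and a p53 target, was 3.87 to 4.83 in parental and 4.54 to 5.85 in knockout cells (0.96, SE 0.11), and its arrays overlapped. CDK4 had a mean difference of -0.27 (SE 0.03). CDK4 is also 1 of the genes that lie within 20 places of GLI1 on chromosome 12, where most genes were lower, as given below.

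For the other genes' relatives, SOX5, of the same SOXD group as SOX6, was 4.77 to 5.66 in parental and 3.45 to 4.45 in knockout cells, where it was above background on 9 of 12 arrays (mean -1.18, SE 0.09). BCL11A, the paralog of BCL11B, was 7.67 to 8.09 in parental and 6.96 to 7.48 in knockout cells (-0.60, SE 0.05). PRKACA, a catalytic subunit of the kinase that activates PPP1R1A, was higher by a mean of 0.52 (SE 0.05) in all 4 conditions, while PRKACB was called lower in 1 (mean -0.59). Of the 7 other protein kinase C genes measured, none was called in any of the 4 conditions, and their mean differences lay between -0.20 in PRKCA and 0.08 in PRKCE. Some of them were dim: PRKCQ was above background on no array. PRKCH was above it on 9 of 12 parental and 6 of 12 knockout arrays, and PRKCA on 9 of 12 knockout arrays. STEAP2 was lower in all 4 conditions (mean -0.44), and STEAP3 (-0.06) and STEAP4 (0.02) were called in none. STEAP4 was above background on no array.

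**Figure D3:**
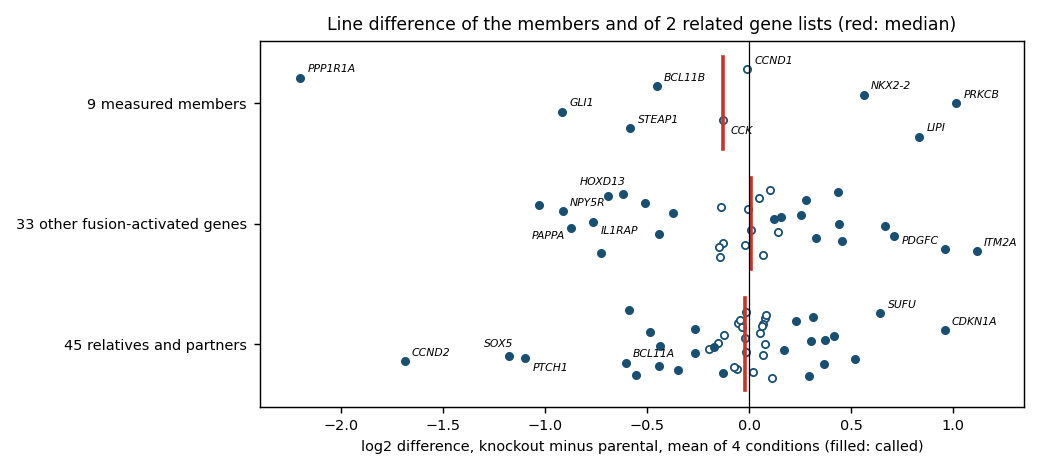
Knockout minus parental difference in log2 signal, averaged over the 4 conditions (x axis), for the 9 measured genes, 33 other fusion-activated genes and 45 relatives and partners; each point is a gene, filled where called, and red lines are medians. The medians are -0.13, 0.01 and -0.02, with genes far out on both sides in each list.

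Each gene was also set beside its neighbours in RefSeq's order on GRCh38.p14, up to 20 genes above background on either side. Over all genes above background the median line difference was -0.02, with 19.2% called higher and 17.5% lower in the mean of the 4 conditions. GLI1 and PPP1R1A, both on chromosome 12, lay among genes that were mostly lower: 27 of 40 neighbours of GLI1 were called lower and 1 higher (median -0.27), and 27 of 40 neighbours of PPP1R1A were called lower and 2 higher (median -0.22). The 2 sets of neighbours have no gene in common, but whether they belong to 1 continuous stretch of lower genes was not tested. No neighbour of GLI1 was lower than GLI1 itself, and 1 neighbour of PPP1R1A was lower than it, PDE1B, a calcium-dependent phosphodiesterase (-2.89). The part of these neighbourhoods in the GLI1 and PPP1R1A differences was not tested.

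Around the other 7 genes the medians lay between -0.09 and 0.03. PRKCB stood at 1.02 among neighbours with a median of -0.09, of which 5 were called higher and 13 lower and none rose more. STEAP1 lay among 8 called higher and 10 lower (median 0.02), and 3 neighbours were lower than STEAP1. LIPI had 21 such neighbours, 6 called higher and 4 lower (median 0.03), and SAMSN1 (2.52) rose more. For NKX2-2, 6 of 40 were called higher and 7 lower, and for BCL11B 1 and 5.

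**Figure D4:**
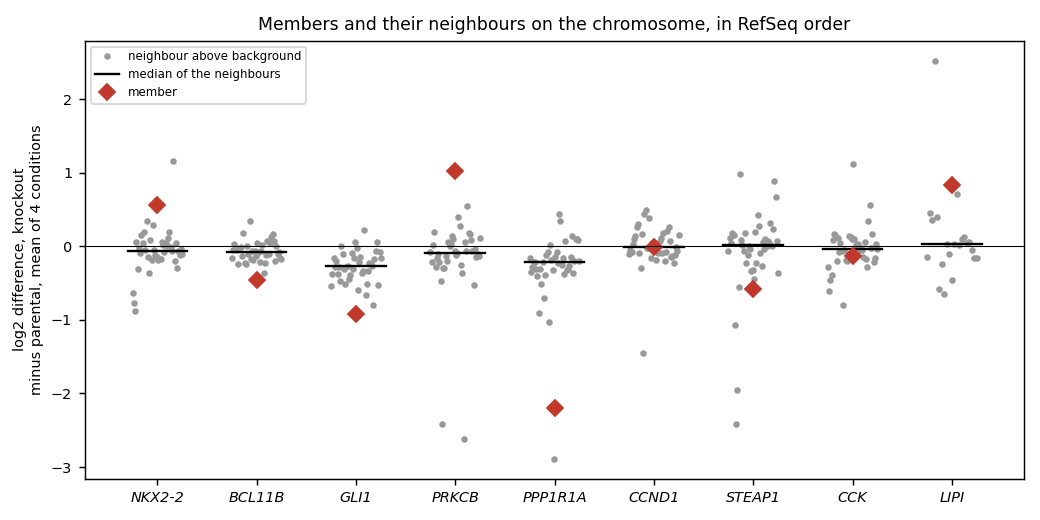
Knockout minus parental difference in log2 signal, averaged over the 4 conditions (y axis), of each of the 9 genes (red diamonds) and of its neighbours on the chromosome in RefSeq order (grey points, black line for their median). Neighbours of GLI1 and PPP1R1A have medians of -0.27 and -0.22, and those of the other 7 genes lie between -0.09 and 0.03.

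By a rule of likeness over the 8 group means, each centred on the gene's own mean, the nearest profiles to PPP1R1A were those of CYP24A1, the vitamin D 24-hydroxylase, and CDH11, a cadherin, with root mean square distances of 0.08 and 0.09 log2 units. GLI1 was nearest to MAGEA3 (0.06) and EYA1 (0.09), PRKCB to GALNT7 (0.04) and EXOC6B (0.05), and LIPI to ITGB5 (0.07) and TMEM254 (0.07). STEAP1 was nearest to STEAP1B (0.05) and XPOT (0.07). Since line dominates these profiles, likeness here is mostly a line difference of like size: CYP24A1 and CDH11, for example, each had a mean difference of -2.09.

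No response of the 9 genes to irradiation was called. In parental cells none passed the test at 4 h, 2 Gy minus 0 Gy, where 0.226% of all genes were called and 2 of the 9 had an unadjusted p below 0.05, or at 24 h (0.0678% of all genes, 0 of 9 unadjusted). In knockout cells none was called at 4 h or at 24 h, where 0% of all genes were called and 0 of 9 had an unadjusted p below 0.05. Those 2 were NKX2-2, whose difference of -0.41 (95% interval -0.78 to -0.04) had the lowest limma adjusted p of the 9, 0.71, and LIPI at -0.33 (-0.66 to -0.003). In knockout cells the differences of all 9 lay between -0.31 (NKX2-2 at 24 h) and 0.28 (GLI1 at 24 h). For PRKCB at 4 h the interval was -0.48 to 0.13 in parental cells and -0.42 to 0.19 in knockout cells. With 3 arrays a group, changes inside these bounds were not excluded.

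The line difference in the irradiation response was tested directly. It was called for none of the 9 genes at 4 h or at 24 h, and for 0% of all genes at either time, with 0 of 9 at an unadjusted p below 0.05 both times. The largest of these interaction terms was 0.41 for LIPI at 4 h (95% interval -0.05 to 0.88), where the difference between the lines was 0.62 without and 1.03 with irradiation. A test of whether the line difference varied over the 4 conditions also called none of the 9 (0% of all genes, 0 of 9 unadjusted). The line differences given above were therefore not shown to depend on dose or time.

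Between 4 h and 24 h none of the 9 genes was called in either line at either dose. The shares of all genes called were 0% in parental and 0% in knockout cells at 0 Gy, and 0.695% in parental and 0.0452% in knockout cells at 2 Gy. With an unadjusted p below 0.05 there were 2, 0, 3 and 1 of the 9 in that order. The 3 were in irradiated parental cells: NKX2-2 at 0.49 (limma adjusted p = 0.32), PPP1R1A at 0.45 (0.19) and PRKCB at 0.44 (0.25), each higher on all 3 arrays at 24 h than on any at 4 h. A fit that blocks on the replicate number called NKX2-2 (limma adjusted p = 0.042) and PRKCB (limma adjusted p = 0.026). The numbers did not pair these arrays by the criterion used, though narrowly. The correlations of replicates 1 to 3 were 0.09, 0.48 and 0.23, where each had to exceed 0.1. The NKX2-2 values at 4 h also enter its -0.41 after irradiation, since both comparisons share the parental 2 Gy, 4 h arrays. In the wider lists the same comparison called NPY1R, a neuropeptide Y receptor (0.64, limma adjusted p = 0.031), the corepressor TLE3 (0.41, limma adjusted p = 0.026) and the cholecystokinin receptor CCKAR (0.76, limma adjusted p = 0.017). CCKAR lay near the background level, above it on 3 of 12 parental arrays, so its difference is uncertain.

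**Figure D5:**
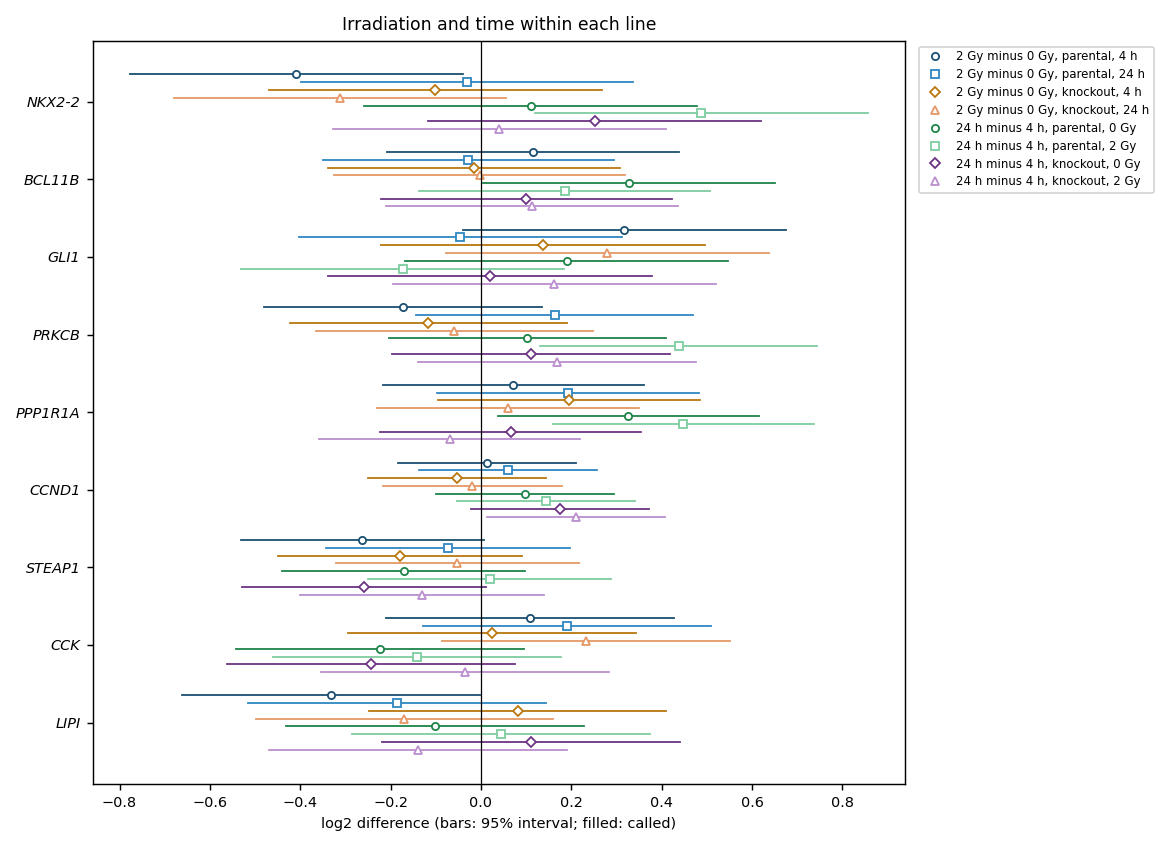
Differences in log2 signal (x axis) of the 9 genes (y axis) for 2 Gy minus 0 Gy and for 24 h minus 4 h, within each line; points are differences of means of 3 arrays, bars are 95% intervals from the limma fit, and no point is filled because none was called. All differences lie between -0.41 and 0.49.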

How the data were processed

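RNA from 24 samples was labelled with a whole-transcript kit and hybridised to Affymetrix expression arrays. The values are log2 signals per probe set as deposited by the authors, made with RMA and Affymetrix Expression Console 1.1, per the submitters' processing notes. RMA corrects background, makes array distributions equal and summarises probes, so a shift common to all genes cannot be seen. No source used here says which arrays RMA took together. Of 24351 probe sets, 17709 had 1 symbol in the platform annotation, none had several, 2903 were controls and 3739 were unnamed here. For 20 genes with several probe sets the one with the highest mean was kept, which left 17687 genes, with no filter on dim genes.

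Differences were fitted in R 4.3.3 with limma 3.58.1 (lmFit, eBayes with an intensity trend), with 1 mean for each of 8 groups over all 24 arrays. The 16 comparisons were adjusted each over all genes by Benjamini-Hochberg. Precision is set by the number of arrays: at the median gene, the 95% interval of a 2-group difference reached 0.31 log2 units to either side. The fit was checked on simulated data.

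The 10 genes and the lists were chosen with earlier results of these data known. Named beside them were EWSR1, FLI1 and SLFN11, up to 6 genes of each list with the largest difference among those called in all 4 conditions with 1 sign, and the 2 nearest profiles of each gene called in all 4. Genes named outside this rule were chosen after their values were seen. These are GLI2, GLI3, SMO, CDK4, CDK6, CCND3, CDKN1B, RB1, PRKACA, PRKACB, PRKCA, PRKCE, PRKCH, PRKCQ, STEAP2, STEAP3, STEAP4, FCGRT, RBM11, CAV1, CD99, KCNAB3, KDSR, NPY1R, TLE3, CCKAR, PDE1B, SAMSN1 and those of the closing section.

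Replicate numbers, from the sample titles, were taken to pair arrays where all 3 same-numbered pairs deviated together (every correlation of deviations from the group means above 0.1). This held for knockout minus parental at 0 Gy, 4 h (0.10 to 0.17) and 2 Gy, 24 h (0.15 to 0.23), and for 2 Gy minus 0 Gy in knockout cells at 4 h (0.15 to 0.27) and 24 h (0.13 to 0.24). Alternatives were array centring, array weights, no trend, a dim filter, means of probe sets, only the arrays compared, the replicate block, and leaving out each array.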

Additional observations from a re-analysis of the deposited data

How the results depend on the processing

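Under the alternatives run, no called difference between the lines changed sign. The number of the 9 genes called stayed within 1.5 times its value, with 1 exception, 24 h minus 4 h in parental cells at 2 Gy. There 0 were called in the main fit and 2 (NKX2-2 and PRKCB) with the replicate number as a block over all 24 arrays. By the criterion above the numbers narrowly fail to pair those arrays, with correlations of 0.09, 0.48 and 0.23 against a cut of 0.1. The cause was not tested. Leaving out each array in turn gave 4 to 6 genes called at 0 Gy and 4 h, 5 to 7 at 0 Gy and 24 h, 5 to 7 at 2 Gy and 4 h, 4 to 6 at 2 Gy and 24 h, 7 to 7 for the mean of the 4 conditions, and 0 to 0 for the 11 other comparisons. The block changed 1 call among the paired comparisons, NKX2-2 at 0 Gy and 4 h. For single genes, BCL11B at 2 Gy and 4 h was also called without the intensity trend (limma adjusted p = 0.027) and with the dim filter (0.047), and at 2 Gy and 24 h was not called with only the arrays compared (0.068). Leaving out both arrays of narrow signal range was chosen after seeing the data; BCL11B was then not called at 2 Gy and 24 h (-0.48, limma adjusted p = 0.079). Array signal over background limits SOX5, NPY5R and PRKCA in knockout cells, and CCKAR, PRKCH, PRKCQ and STEAP4 in both lines.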

Other observations

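Further genes of the wider fusion-activated list were called between the lines in 3 of 4 conditions (knockout minus parental, limma fit), and examples were named after their values were seen. TERT, the catalytic subunit of telomerase, had differences of -1.18 and -0.93 at 0 Gy (4 h and 24 h) and -1.27 at 2 Gy and 24 h, all called, and -0.74 at 2 Gy and 4 h, not called (adjusted p = 0.13). PAX7, a paired box factor of muscle stem cells, had differences of 0.68, 0.98 and 0.64 in the same 3 conditions, called, and 0.53 at 2 Gy and 4 h, not called (adjusted p = 0.10). CACNB2, a calcium channel subunit, was called at -0.71, -0.74 and -0.80 and not at 2 Gy and 24 h (-0.65, adjusted p = 0.057). The transcription factors SOX2 and FEZF1 and the enzyme UGT3A2 were called in none, with mean differences of 0.01, -0.004 and -0.02.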
